A study of Mus musculus with 12 samples.

Results

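The genes described here encode laminin chains and the proteins that link laminin to the rest of the basement membrane. There are 10 of them among the 28995 genes listed in the deposited tables, taken by exact gene symbol: the laminin alpha chains Lama2, Lama4 and Lama5, the beta chains Lamb1 and Lamb2, the gamma chain Lamc1, the nidogens Nid1 and Nid2, perlecan (Hspg2) and agrin (Agrn). Each symbol matched exactly 1 gene in each of the 3 tables, and all 10 had reads in every library.

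A laminin is a trimer of 1 alpha, 1 beta and 1 gamma chain that polymerises on the cell surface and starts the assembly of a basement membrane. The nidogens bind the gamma chain and connect the laminin network to type IV collagen, while perlecan and agrin are large heparan sulfate proteoglycans that bind laminin, collagen and cell surface receptors. In skeletal muscle the laminin that carries the Lama2 chain is the main laminin around each muscle fibre, and it is held by dystroglycan and by integrins. Loss of Lama2 causes a congenital muscular dystrophy. Fibroblasts of the muscle interstitium make several of these proteins.

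Poly(A) RNA was sequenced from fibroblasts of hindlimb muscle of C57BL/10 wild-type mice aged 3 days, enriched by adherence and used at passage 2. After 24 hours in charcoal-stripped serum, which removes steroids, the cells received 1 µM aldosterone, which activates the mineralocorticoid receptor, 1 µM spironolactone, which blocks that receptor, or the solvent DMSO (vehicle) for 48 hours. The cells of 2 mice were used, pooled within a mouse and re-plated to 2 plates per mouse and treatment, so each treatment had 4 libraries and there were 12 in all. The labels number the libraries as sample 1 or 2 and as biol rep 1 or 2, without saying which number is the mouse. With only these mice, the p-values below measure the spread between plates more than between animals.

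Libraries held between 19136923 and 30219185 reads on genes. The summed level of 8 fibroblast markers was 6039 to 7599 RPKM (reads scaled by gene length and library total), of which Col1a1, Vim and Fn1 made up most. Summed levels were at most 1.53 RPKM for the macrophage markers, of which Itgam was not listed, and 0.328 for 3 epithelial markers. The 5 endothelial markers summed to at most 5.74, most of it Tek (3.55 to 5.04), with Pecam1 at or below 0.0673. Pericyte and smooth muscle markers summed to 27.0 to 50.3 RPKM, most of it Cspg4 (21.2 to 36.1). Schwann cell markers summed to 6.65 to 12.5 RPKM and adipocyte markers to 3.07 to 8.41. The summed myogenic markers were lower with aldosterone, at 3.97 to 8.71 RPKM against 12.5 to 17.3 with vehicle, and nearly all of that sum was Acta1, while Pax7, Myf5 and Ckm were at or near 0. The summed fibroblast markers were lower with aldosterone as well, at 6039 to 6714 RPKM against 7131 to 7599 with vehicle. The largest falls in mean RPKM were those of Col1a1 (3688 with vehicle, 2842 with aldosterone) and Fn1 (1815 and 1513), neither of them called. Col3a1 was called lower (-0.43 on the log2 scale) and Pdgfra (0.91) and Vim (0.48) higher. Of the endothelial, Schwann cell and adipocyte markers, 1 each was called higher with aldosterone, Kdr (1.88), S100b (0.50) and Plin1 (1.78). Kdr and Plin1 were low, at mean RPKM of 0.211 and 0.277 with vehicle and 0.761 and 0.868 with aldosterone. The part of these marker differences in the results below was not tested. As a check that aldosterone acted, Fkbp5, a target of steroid receptors, differed from vehicle by 4.26 on the log2 scale and Tsc22d3 by 2.69. In bulk RNA, fewer cells of a kind and less RNA per cell cannot be told apart.

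Lama2 and Nid1 were the 2 members called with aldosterone in the fit with treatment only, and the sequence before the start of each gene is given here because the later results turn on them. In the submitters' mm39 coordinates Lama2 lies at chr10:26856032-27495754 on the minus strand and Nid1 at chr13:13612136-13686854 on the plus strand. The 250 bases before the RefSeq transcription start are printed 5′ to 3′ in the direction of transcription, from RefSeq windows on GRCm38.p6, with the steroid receptor hexamer AGAACA in capitals where it occurs. The windows lie at chr10:27616943-27617192 on the minus strand for Lama2 and at chr13:13437352-13437601 on the plus strand for Nid1.
Lama2: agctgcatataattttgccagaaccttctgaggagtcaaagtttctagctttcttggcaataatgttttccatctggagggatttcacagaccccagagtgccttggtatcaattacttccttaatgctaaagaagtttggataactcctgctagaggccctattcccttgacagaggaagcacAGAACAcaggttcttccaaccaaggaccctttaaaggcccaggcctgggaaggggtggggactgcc
Nid1: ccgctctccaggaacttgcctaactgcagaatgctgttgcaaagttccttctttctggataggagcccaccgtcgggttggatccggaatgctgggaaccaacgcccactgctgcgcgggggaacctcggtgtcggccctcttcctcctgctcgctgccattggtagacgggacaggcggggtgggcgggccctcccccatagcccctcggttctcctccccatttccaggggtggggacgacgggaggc

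The hexamers AGAACA and TGTTCT, which are each other's reverse complement, were searched in windows of 300 bases that also hold the first 50 transcribed bases. Of the 10 members, 7 had such a window in the RefSeq table and Agrn had 2, so 8 windows were searched. Lama2 was the only one with a hexamer, 1 copy of AGAACA that begins 66 bases before the start, at chr10:27617003-27617008. Nid1 had none. Of all 32851 windows, 19.0% hold one or both hexamers, so 1 match among 8 windows is close to that share. The pair with 3 bases between them was in none of the 8 and in 3 of all windows. The Lama2 window had the fewest CpGs of the 8, with 1, a count that 14.1% of all windows match or stay below, and it was 50.3% G and C. The Lamb2 window was also low in both, with 4 CpGs and 44.0% G and C. The Nid1 window had 20 CpGs and 64.7% G and C, and the richer Agrn window 42 CpGs and 83.3%. A match is a description of these letters and does not show binding.

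The order of the 10 genes per length in vehicle cells ran over a 65.5-fold range with the gene lengths in the tables. Perlecan was the highest, at 211 ± 14.2 RPKM (SD, n = 4), followed by the beta chain Lamb2 at 135 ± 7.3, Nid1 at 82.7 ± 3.27, Nid2 at 60.4 ± 13.3 and the gamma chain Lamc1 at 44.8 ± 1.27. Lamb1 followed at 22.7 ± 0.753, Lama4 at 15.6 ± 1.47, Agrn at 8.84 ± 1.09, Lama5 at 6.90 ± 0.942 and Lama2, the lowest, at 3.22 ± 0.377. Perlecan ranked 152nd and Lama2 8699th of the 28995 genes. Of neighbours in this order, only Agrn (7.89 to 10.1) and Lama5 (5.67 to 7.95) had overlapping ranges over the 4 vehicle libraries.

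The 3 alpha chains were the scarcest of these laminin chains. The gamma chain, which every one of these trimers needs, was at 1.74 times the summed level of the 3 alpha chains. Among the alpha chains Lama4 was 4.83 times Lama2. Lamb2, a beta chain of the neuromuscular junction, was 5.93 times Lamb1. Nid1 was 1.37 times Nid2. With the length of the longest transcript in the GENCODE M1 annotation in place of the length in the tables, the vehicle order of all 10 genes was the same, but the ratios depended on this choice. The range became 39.8-fold, Lamb2 to Lamb1 3.74, Lamc1 to the summed alpha chains 1.12, Lama4 to Lama2 5.63 and Nid1 to Nid2 1.48.

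**Figure D1:**
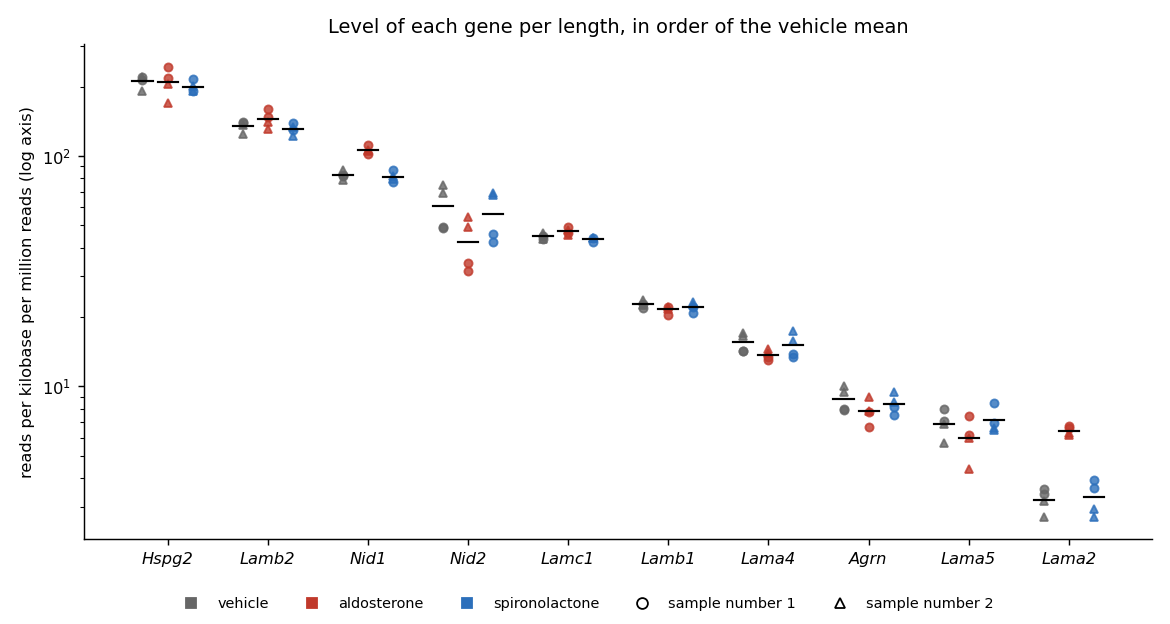
Levels of the 10 genes in RPKM, on a log axis, in order of the vehicle mean. Each point is a library (4 per treatment, circles for sample number 1 and triangles for sample number 2) and each short line a mean. Lama2 is the lowest gene with vehicle at 3.22 and lies at 6.43 with aldosterone, beside Lama5 at 5.99.

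With aldosterone and the lengths in the tables the order differed in 2 places. Lama2 reached 6.43 ± 0.279 RPKM, above the mean of Lama5 at 5.99 ± 1.24, with Lama2 libraries (6.13 to 6.72) inside the range of Lama5 libraries (4.40 to 7.43). With the M1 lengths Lama2 was above both Agrn at 9.99 RPKM and Lama5 at 5.99 with aldosterone. Lamc1 at 47.2 ± 1.68 was above the mean of Nid2 at 42.3, whose libraries spread from 31.8 to 54.2 around those of Lamc1. The 10 genes together took between 0.527% and 0.658% of a library's reads, and both of these extremes were aldosterone libraries, sample 2 biol rep 2 and sample 1 biol rep 1. Perlecan alone was 0.251% and 0.360% of the reads of those libraries.

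The first comparison, of aldosterone with vehicle, asks which of these genes differ with the receptor's agonist. No library received aldosterone and spironolactone together, so the part of the mineralocorticoid receptor in these differences was not tested. Values are the authors' normalized counts, and a gene counts as called where limma gave an adjusted p no higher than 0.05 (Benjamini-Hochberg over all 27319 genes of the table). Lama2 and Nid1 rose and the other 8 members were not called. The 2 called higher compare with 5.68% of all genes called higher, and the 0 called lower with 4.74% of all genes called lower. Here and below, such shares include genes with few reads. The share among genes at levels like those of the members is not given. Without adjustment, 3 members were higher and 2 lower at p below 0.05, and edgeR and DESeq2 on the recovered reads also called 2 higher and 0 lower. The median log2 difference of the 10 members was -0.0066, beside -0.0064 for all genes.

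Lama2 gave 1359 and 1408 normalized counts in the vehicle libraries of sample number 1 and 1053 and 1231 in those of sample number 2. In the aldosterone libraries it gave 2759 and 2709 for sample number 1, and 2441 and 2469 for sample number 2. The treatments did not overlap, and within each the libraries of sample number 1 were the higher ones. Its mean went from 1263 ± 158 to 2595 ± 163 (SD, n = 4 each), a log2 difference of 1.05 ± 0.0813 (SE) with a 95% confidence interval from 0.87 to 1.22 and an adjusted p of 1.71e-07 (limma). This is a 2.06-fold rise. Lama2 was the only member to pass the second threshold of the study's methods, a log2 difference of 1 or more in size, which 2.06% of all genes passed together with the first.

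Nid1, the nidogen of nearly all basement membranes, gave 13678 and 13590 normalized counts in the vehicle libraries of sample number 1 and 12806 and 14064 in those of sample number 2. With aldosterone it gave 19162 and 17499 for sample number 1, and 17608 and 17294 for sample number 2. These groups did not overlap either, with the aldosterone library of sample 1 biol rep 1 apart from the other 3. Its mean went from 13535 ± 527 to 17890 ± 857, a log2 difference of 0.40 ± 0.0563 (SE) with an adjusted p of 1.24e-04 (limma). The rise was 1.32-fold, with a 95% confidence interval from 1.22-fold to 1.44-fold. Lama2 and Nid1 were the 2 of 10 members with all aldosterone values above all vehicle values, beside 7.55% of all genes.

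**Figure D2:**
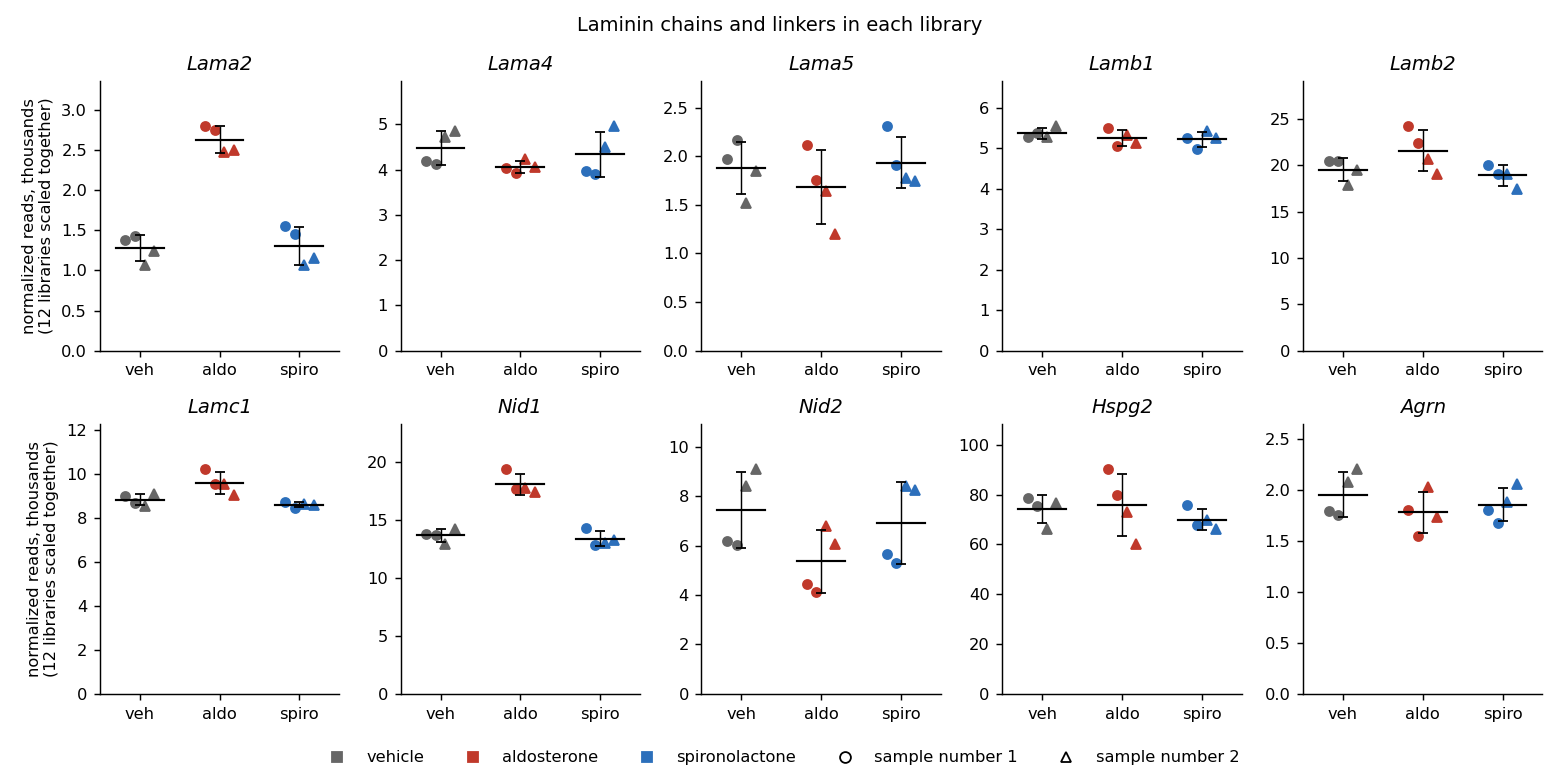
Each of the 10 genes in every library, as recovered reads scaled over all 12 libraries together (veh, vehicle; aldo, aldosterone; spiro, spironolactone). Points are libraries, with circles for sample number 1 and triangles for sample number 2, lines are means and bars are SD (n = 4). For Lama2 and Nid1 the aldosterone libraries lie above all others. Within each treatment the sample numbers are separated for Nid2, Lama2, Lama4 and Lama5.

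Nid2, the second nidogen, had the largest difference of the members that were not called. It gave 6139 and 5959 normalized counts in the vehicle libraries of sample number 1 and 8331 and 8982 in those of sample number 2. With aldosterone it gave 4378 and 4062 for sample number 1, and 6726 and 6013 for sample number 2. The groups overlapped, because the higher aldosterone libraries, of sample number 2, reached the vehicle values of sample number 1. Within each sample number every aldosterone value was below every vehicle value. The log2 difference was -0.48 ± 0.150 (SE), with an adjusted p of 0.0529 (limma). A block for the sample number in the same fit left the difference the same, with an SE of 0.0439 and an adjusted p of 4.55e-10. By sample number the log2 difference was -0.52 for number 1 and -0.44 for number 2.

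With that block, 6 members were called. Lama2, Nid1, Lamb2 and Lamc1 rose, beside 8.68% of all genes called higher in the blocked fit, and Nid2 and Lama4 fell, beside 8.02% called lower. Lamb2 differed by 0.14 on the log2 scale with a blocked adjusted p of 0.0178, against 0.315 without the block. Lamc1 differed by 0.12, with a blocked adjusted p of 0.0442 against 0.223. Lama4, the alpha chain of the basement membranes of vessels and fat and of the developing muscle, differed by -0.14, with a blocked adjusted p of 0.0228 against 0.215. Its call was lost again when a correction for gene length was added to the block, with an adjusted p of 0.0863. As folds, Lamb2 was at 1.10 and Lama4 at 0.910.

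The other 4 members were called in neither fit. Lama5, the alpha chain of many epithelial and vessel basement membranes, ranged from 1507 to 2139 normalized counts with vehicle and from 1189 to 2091 with aldosterone, a log2 difference of -0.18 with a 95% confidence interval from -0.46 to 0.11. Agrn, which clusters acetylcholine receptors at the neuromuscular junction when made by motor neurons, went from 1934 ± 217 to 1759 ± 196, a log2 difference of -0.14 with an interval from -0.32 to 0.0464. Lamb1 had the narrowest interval of the 10, from -0.14 to 0.0772 around -0.0306. Perlecan spread widely with aldosterone, from 59514 to 89032 normalized counts against 65545 to 77792 with vehicle, and its interval from -0.20 to 0.24 around 0.0175 leaves a change of either sign. Among the aldosterone libraries, sample 2 biol rep 2 was the lowest and sample 1 biol rep 1 the highest for perlecan, Lama5, Lamb2, Lamc1 and Nid1 alike. Of the aldosterone libraries, sample 2 biol rep 2 also had the most reads on genes (30219185) and sample 1 biol rep 1 the fewest (19141597). Without sample 2 biol rep 2 the log2 difference of perlecan was 0.12 and without sample 1 biol rep 1 it was -0.0706, neither of them called.

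**Figure D3:**
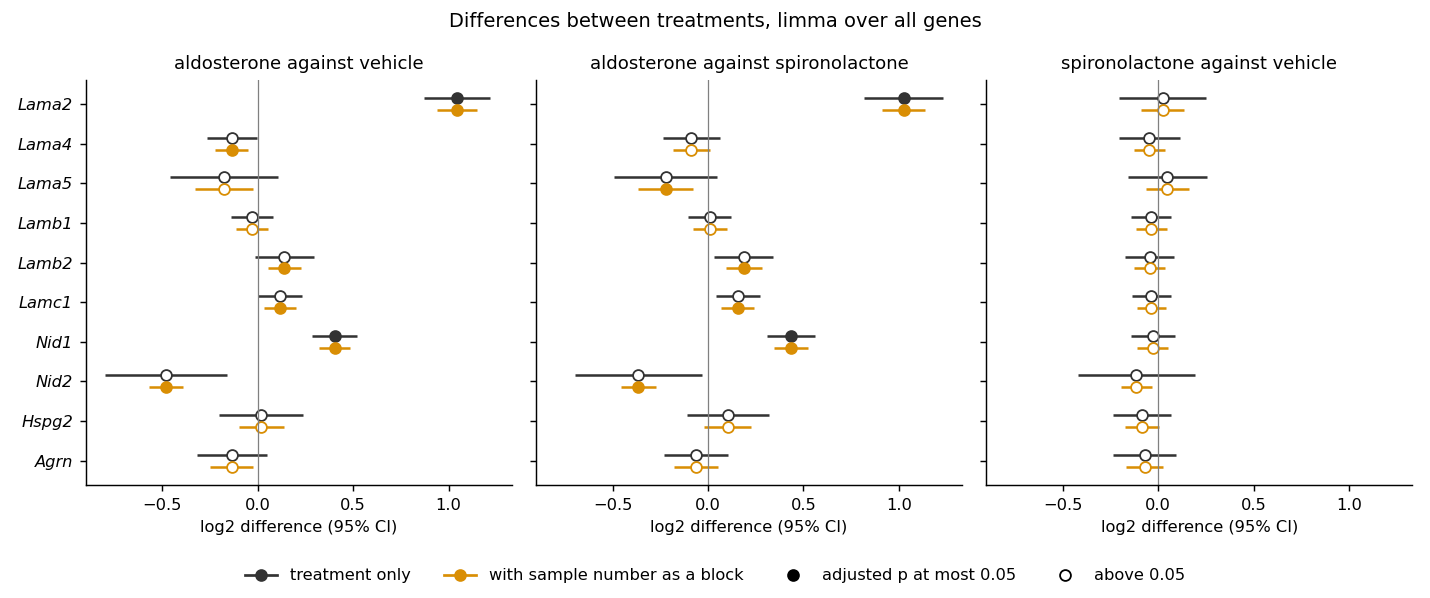
Log2 differences of the 10 genes with 95% confidence intervals for the 3 comparisons, from limma over all genes, with treatment only (dark) or with the sample number added as a block (orange). Filled points have an adjusted p of at most 0.05. The interval of Nid2 is much narrower with the block, and with spironolactone against vehicle no point is filled.

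The second comparison sets the receptor's agonist against its antagonist. It shares the aldosterone libraries with the first, so its values are given side by side and are not independent of it. Lama2 and Nid1 were again the 2 members called, beside 4.93% of all 27631 genes called higher, and 0 were called lower beside 3.96%. At p below 0.05 without adjustment, 4 members were higher and 1 was lower. DESeq2 called 3 higher and 0 lower, and edgeR 2 and 0.

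Lama2 gave 1580 and 1473 normalized counts in the spironolactone libraries of sample number 1 and 1082 and 1166 in those of sample number 2, against 2508 to 2843 over the 4 aldosterone libraries of this table. The log2 difference was 1.02 ± 0.0975 (SE), 2.03-fold, with an adjusted p of 1.14e-06 (limma). Nid1 gave 13123 to 14605 with spironolactone and 17768 to 19744 with aldosterone, a log2 difference of 0.43 ± 0.0591 with an adjusted p of 6.93e-05. Both were above spironolactone in every aldosterone library.

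Lamc1 was the third member whose groups did not overlap, beside 6.76% of all genes with every aldosterone value higher. It gave 8596 to 8863 normalized counts with spironolactone and 9178 to 10393 with aldosterone. Its log2 difference was 0.16 ± 0.0539 with an adjusted p of 0.0927 (limma), 0.0159 by DESeq2 and 0.00825 with the block, and it was called in 7 of 18 alternatives. With the sample number as a block 6 members were called. The 4 that rose were Lama2, Nid1, Lamc1 and Lamb2 (0.19, blocked adjusted p 0.00327 against 0.153), beside 7.58% of all genes. The 2 that fell were Nid2 (-0.36, blocked adjusted p 7.48e-08 against 0.205) and Lama5 (-0.22, 0.0302 against 0.394), beside 6.8% of all genes. In edgeR with the block Lama5 was not called (adjusted p 0.0641), and without the block its difference was -0.0705 when aldosterone sample 2 biol rep 2 was left out. Lama4 was not called here in either fit, at -0.0872 with an interval from -0.23 to 0.0603.

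The third comparison asks whether the antagonist alone moved these genes in serum stripped of steroids. No member was called against vehicle by limma in either fit, by edgeR or by DESeq2, and 0 members had an unadjusted p below 0.05. Of all 27598 genes 0.0% were called higher and 0.0% lower with treatment only, and 0.228% and 0.123% with the block. Lama2 was 1299 ± 233 with spironolactone and 1271 ± 159 with vehicle, a log2 difference of 0.0227 with a 95% confidence interval from -0.21 to 0.25. Nid1 differed by -0.0290, with an interval from -0.14 to 0.0856. The widest interval was that of Nid2, from -0.42 to 0.19, and the 10 intervals without the block include 0. With the block the interval of Nid2 was -0.20 to -0.0341, at an adjusted p of 0.334 (limma). A rise of Lama2 as large as that with aldosterone lies outside its interval, whose upper bound is 1.19-fold.

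The 3 alpha chains can each form trimers with the same beta and gamma chains, and their shares within a library were compared. These shares need no size factor. They sum to the whole, so a higher Lama2 share lowers those of Lama4 and Lama5. The share tests use the same reads as the call of Lama2 and are not independent of it. Lama2 made up 12.6% ± 1.49 (SD, n = 4) of the reads per kilobase of the 3 alpha chains with vehicle, 24.6% ± 1.17 with aldosterone and 12.9% ± 2.40 with spironolactone. The lowest aldosterone library, at 23.1%, was above the highest of the other treatments, at 15.1%. The exact permutation p (two-sided) was 0.0286 for aldosterone against vehicle and against spironolactone, the smallest that 4 against 4 libraries allow, and 0.107 after Benjamini-Hochberg adjustment over the 15 ratio and share comparisons. The share of Lama4 was 60.6% ± 5.05 with vehicle and 52.6% ± 3.74 with aldosterone (exact permutation p = 0.0571), and that of Lama5 was 26.9% ± 3.58 and 22.8% ± 3.82 (exact permutation p = 0.171).

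The ratio of Nid1 to Nid2 per kilobase was 1.42 ± 0.303 with vehicle, 2.64 ± 0.691 with aldosterone and 1.52 ± 0.394 with spironolactone. It was 1.66 and 1.70 in the vehicle libraries of sample number 1 and 1.15 and 1.17 in those of sample number 2, and with aldosterone it was 3.26 and 3.21 for sample number 1 and 1.95 and 2.14 for sample number 2. The lowest aldosterone ratio, 1.95, was above the highest vehicle ratio, and the difference was 1.85-fold on average (exact permutation p = 0.0286, adjusted 0.107). The difference on the log2 scale was 0.95 within sample number 1 and 0.82 within sample number 2. Permuting only within sample numbers gave p = 0.0556 (exact permutation), the smallest p that such a design can give, for all 5 ratios and shares in both comparisons with aldosterone. The ratio of Lamb1 to Lamb2 was 0.150 ± 0.0133 with aldosterone and 0.169 ± 0.0109 with vehicle (exact permutation p = 0.143), and the groups overlapped. Between spironolactone and vehicle the exact permutation p of the 5 ratios and shares was 0.543 or more, and 0.111 or more within sample numbers.

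**Figure D4:**
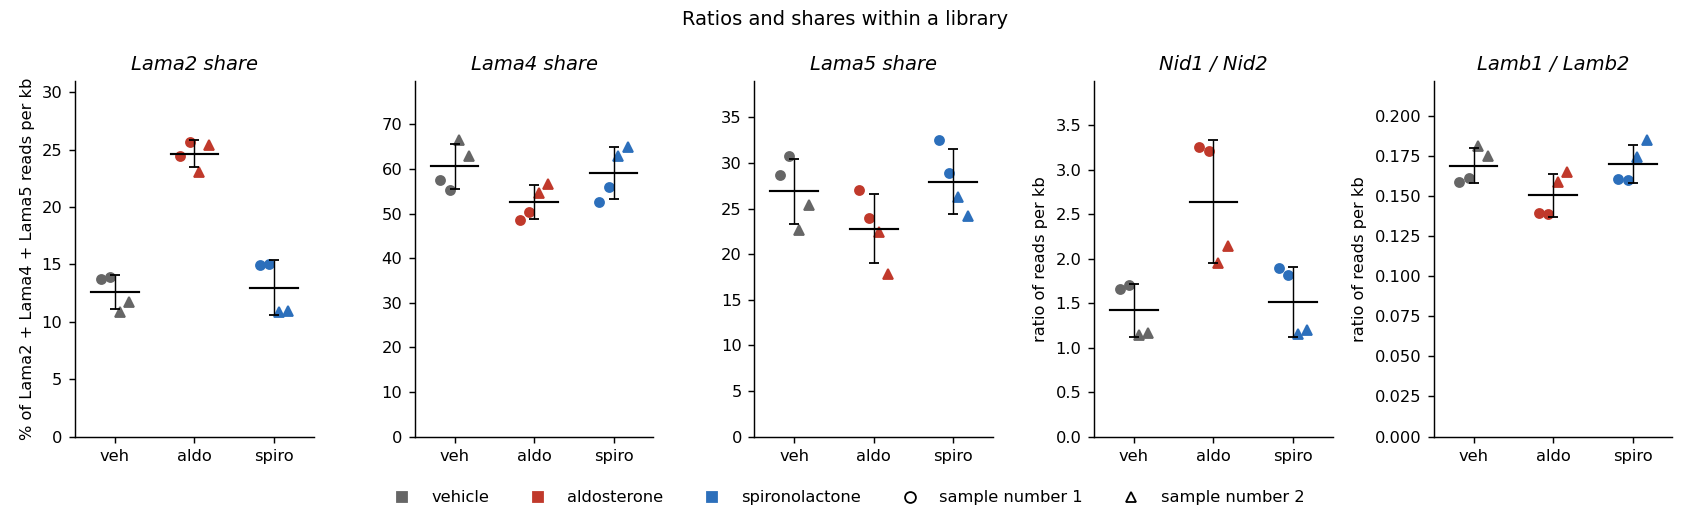
Share of each alpha chain in the reads per kilobase of Lama2, Lama4 and Lama5, and ratios of Nid1 to Nid2 and Lamb1 to Lamb2, in each library (veh, vehicle; aldo, aldosterone; spiro, spironolactone). Lines are means and bars SD (n = 4). The Lama2 share of the aldosterone libraries, 23.1% to 25.6%, lies above all 8 other libraries. The Nid1 to Nid2 ratio is separated by aldosterone, and by sample number within each treatment.

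The 2 sample numbers differed in most of these genes. In a fit over all 12 libraries with treatment as a factor (limma over 28995 genes, 6 libraries per number), 3 members were higher in number 2, beside 5.09% of all genes, and 4 were lower, beside 5.81%. Nid2 differed most, at 5286 ± 851 against 7845 ± 1148 reads scaled over the 12 libraries, a log2 difference of 0.57 ± 0.0355 (SE) with an adjusted p of 1.72e-12. Within each treatment its libraries of number 2 were all above those of number 1, by 0.52 with vehicle, 0.59 with aldosterone and 0.61 with spironolactone. Agrn (0.21, adjusted p 0.00181) and Lama4 (0.18, adjusted p 0.00111) were higher in number 2 as well.

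Lama5 (-0.34, adjusted p 4.80e-04), Lama2 (-0.29, adjusted p 4.06e-05), perlecan (-0.18, adjusted p 0.0208) and Lamb2 (-0.15, adjusted p 0.00391) were lower in number 2. Lamb1 (0.0234), Lamc1 (-0.0295) and Nid1 (-0.0472) were not called. A difference between the sample numbers in the response itself was tested by an interaction term. No member was called for any comparison, with adjusted p of at least 0.895 and 4 genes called in the whole table for each of the comparisons with aldosterone (limma). Without adjustment the term was below 0.05 for 0 members in aldosterone against vehicle and for 3 in aldosterone against spironolactone, Lama4, perlecan and Lama2, the last with a log2 difference of 0.88 for number 1 and 1.17 for number 2. Count tests were not run for this term.

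Across the 12 libraries the genes whose pattern was most like that of Lama2 were Gclc (Pearson r = 0.989), Gas6 (0.988), Mbnl1 (0.985), Comp (0.985) and Ppfibp1 (0.981), of 11205 genes with a mean of at least 100. Gclc is a subunit of the enzyme that starts glutathione synthesis, Gas6 a ligand of TAM receptor kinases, Mbnl1 a splicing regulator, Comp a matrix protein of cartilage and tendon and Ppfibp1 a liprin. These values describe 12 libraries that share mice, treatment and processing, and all 5 genes rose with aldosterone, from Ppfibp1 at 0.34 to Gas6 at 1.45 on the log2 scale. Among the members, Nid1 was the most like Lama2, at r = 0.957, and both rose with aldosterone. With each treatment mean removed, r with Lama2 was 0.567 for Nid1, below Lama5 (0.712) and Lamb2 (0.664).

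Other basement membrane genes were described from lists chosen with earlier results of these data known. Of 5 laminin chains that are not members, 2 rose with aldosterone and 0 fell, and 3 and 0 with the sample number block. This and the list counts that follow stand beside 5.68% of all genes called higher and 4.74% lower with treatment only, and 8.68% and 8.02% with the block. Lamc3, a gamma chain of limited tissue range, rose from 7.01 ± 3.77 to 75.0 ± 23.0 normalized counts, a log2 difference of 3.32 ± 0.367 with an adjusted p of 1.06e-05 (limma). Lamc1 in the same libraries was at 9476 ± 472. Lama3, an alpha chain of epithelial basement membranes, rose by 0.92 on the log2 scale with an adjusted p of 0.0130. This call was lost when any library but vehicle sample 2 biol rep 1 was left out, with adjusted p from 0.0877 to 0.167.

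Of 9 collagens of basement membranes 3 rose and 0 fell (4 and 0 with the block). Col4a1 and Col4a2, which form the type IV collagen found in nearly all basement membranes and lie side by side in the genome, rose together, from 11028 ± 297 to 20341 ± 1625 and from 10797 ± 304 to 18732 ± 1518 normalized counts, by 0.88 and 0.79 on the log2 scale (adjusted p 4.99e-08 and 1.72e-07, limma). Col7a1, the collagen of anchoring fibrils in skin, rose by 0.57 from 218 ± 18.8. The other 6 were not called with treatment only.

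Of 7 genes for laminin receptors 2 rose and 1 fell (3 and 1 with the block). The integrin chain Itga3 rose by 0.58 (adjusted p 1.97e-05) and dystroglycan (Dag1) by 0.29 (adjusted p 0.00557), and Itga7, the integrin chain typical of muscle fibres, fell by 0.35 (adjusted p 0.0468). The calls of Dag1 and Itga7 were less firm than that of Itga3. That of Dag1 was lost without either vehicle library of sample 1 or either aldosterone library of sample 2, with adjusted p from 0.0592 to 0.0659. That of Itga7 was lost without any library but vehicle sample 1 biol rep 1, with adjusted p from 0.0802 to 0.128, and with TMM scaling (0.0536), the biol rep number as a block (0.0680) or the length correction (0.0750).

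Of 13 genes of the dystroglycan-associated complex 4 rose and 1 fell (5 and 2 with the block). Dystrobrevin alpha (Dtna) rose by 1.32, from 241 ± 40.9 to 599 ± 66.9 normalized counts, and dystrophin (Dmd) by 0.41. Delta-sarcoglycan (Sgcd) fell by 0.38 (adjusted p 0.00485), a call lost when any 1 of 4 libraries was left out (vehicle sample 1 biol rep 2, both vehicle libraries of sample 2 and aldosterone sample 1 biol rep 2), with adjusted p from 0.0518 to 0.0596. Of 14 enzymes for the sugar chain by which dystroglycan binds laminin, 1 rose and 0 fell, and 1 and 2 with the block. The one that rose was B3galnt2, at 0.27 (adjusted p 0.0364), and its call was lost without any library but vehicle sample 1 biol rep 2, with adjusted p up to 0.147, and with the biol rep number as a block (0.0542). A further list held 4 genes for the agrin receptor and for proteins that act with it at the neuromuscular junction. Of these agrin receptor genes 0 were called by limma in either fit, edgeR or DESeq2 and 0 had an unadjusted p below 0.05. Their median log2 difference was -0.11. Of these 4 genes 2 had a mean of at least 10 normalized counts, at 776 and 19.4, so the counts of 0 say little about the lower ones.

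Of 16 other proteins of basement membranes 4 rose and 4 fell (7 and 4 with the block). The largest increases were Smoc1 (0.90), Ecm1 (0.56) and Tinagl1 (0.50), and the largest decreases were Fras1 (-0.74), Pxdn, a peroxidase that cross-links type IV collagen (-0.44), and Hmcn1 (-0.44). The call of Fras1 was lost without any single library (adjusted p from 0.111 to 0.298) and in edgeR (0.0506) and DESeq2 (0.0899), while with the sample number block its adjusted p was 7.50e-08. The call of Hmcn1 was lost without either vehicle library of sample 1, vehicle sample 2 biol rep 2 or aldosterone sample 2 biol rep 1, with adjusted p up to 0.0631. The other 4 genes named here were called whichever library was left out. Against spironolactone, where the aldosterone libraries are the same, genes of the 7 lists that rose and fell were counted as well. The counts were 2 and 0 for laminin chains, 3 and 0 for collagens and 2 and 1 for laminin receptors. They were 3 and 1 for the dystroglycan-associated complex, 0 and 0 for the sugar chain enzymes and 0 and 0 for the agrin receptor genes. The other proteins had 5 and 3. These counts stand beside 4.93% of all genes called higher and 3.96% lower. In the 2 lists with none called, edgeR and DESeq2 also called 0, and the unadjusted p was below 0.05 for 3 of the enzymes and 0 of the agrin receptor genes. With the block 1 enzyme was called higher and 3 lower, and 0 of the agrin receptor genes in either direction.

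**Figure D5:**
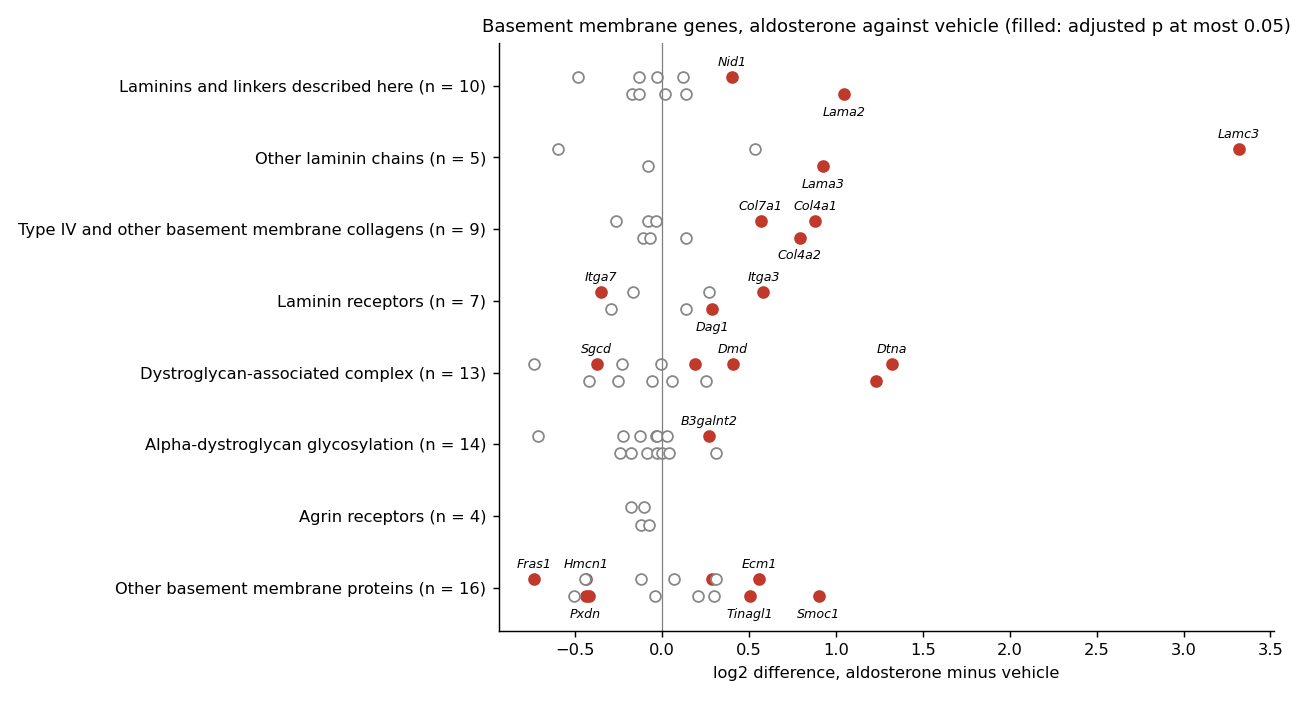
Log2 differences between aldosterone and vehicle for the 10 laminin and linker genes and 7 lists of other basement membrane genes, 1 point per gene, with red filled points for an adjusted p of at most 0.05 (limma). Called genes lie on both sides of 0, with Lamc3 the farthest at 3.32, and genes named in the text are labelled.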

How the data were processed

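Poly(A) RNA of 12 fibroblast libraries (4 per treatment) was sequenced. The authors deposited 3 tables, 1 per pair of treatments, of normalized counts, which are a signal per gene made by dividing read counts by a size factor per library. Per the submitters' processing notes reads were aligned with HISAT2 2.0.5 to mm39 and counted with featureCounts 1.5.0-p3. The study's methods name mm9 instead, and the strand setting is not given in the sources used here, so reads of a gene and an antisense partner cannot be told apart. The tables also hold the authors' group means, fold changes and p-values, which were not used.

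Whole reads were recovered from the steps of the values in 22 of 24 columns, where 100.0% of values were whole within 0.01. The other 2 columns have a step near 1 and took the reads of the same library from its other table, with 210 gene values filled from the step. Levels per length (RPKM) use these reads and the gene lengths in the tables.

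The main test was limma 3.58.1 (R 4.3.3) with a prior trend on log2(value + 1), over every gene of a table, with treatment only, and a Benjamini-Hochberg adjusted p no higher than 0.05. A log2 difference on this scale understates changes of low genes. Alternatives were edgeR 4.0.16 (quasi-likelihood) and DESeq2 1.42.0 on the recovered reads, TMM scaling, a pseudocount of 0.5, a mean of at least 10, either label number as a block, a correction for gene length (lowess span 0.3), and leaving out each library. A blocked edgeR fit, the interaction with sample number and GENCODE M1 transcript lengths were added after seeing the data. Ratios and shares were compared by two-sided exact permutation tests. The fits were tested on simulated counts.

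Libraries with the same sample number deviated together from their treatment means (24 pairs over 15276 genes, mean r = 0.219, from 0.134 to 0.283), which is a property of the data since the labels do not say what the number marks. Libraries with the same biol rep number did not (mean r = -0.0055). Depth of 19136923 to 30219185 reads limits the precision of low genes most.

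All 10 members are described. Of the other lists, genes called against vehicle with a mean of at least 10 are named, up to the 3 largest increases and decreases per list. A gene that this rule takes is not reported here. The members and lists were chosen with earlier results of these data known.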

Additional observations from a re-analysis of the deposited data

Results flagged for a closer look

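Nid1 in the aldosterone library of sample 1 biol rep 1 lay apart from the other aldosterone libraries, at 19161.5 normalized counts against 17294 to 17608. Its gap to the nearest value was 0.832 of the range of the 4 libraries, just above Dixon's critical value at 95%. This was the only one of 30 groups of 4 so marked, and chance marks about 5% of groups. Without that library Nid1 remained called against vehicle, as it did without any other single library (adjusted p at most 0.0061, limma).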

How the results depend on the processing

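Lama2 and Nid1 were called in all 18 alternatives in both comparisons with aldosterone, with log2 differences from 0.96 to 1.10 and from 0.37 to 0.44 against vehicle, and from 0.93 to 1.11 and from 0.40 to 0.47 against spironolactone. With the sample number as a block 6 members were called against vehicle and 6 against spironolactone, with gene length corrected as well 5 and 6, and in edgeR with the block 6 and 5, where Lama5 against spironolactone was not called. The sample number block changed no call of a member beyond those given with the results. Lamb1 against vehicle turned from -0.0306 to 0.0052 with the length correction, with and without the block, and was called in neither.

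Leaving out 1 library moved values that were not called across 0. The log2 ranges were -0.0706 to 0.12 for perlecan between aldosterone and vehicle, -0.0143 to 0.0274 for Lamb1 and -0.13 to 0.0022 for Agrn between aldosterone and spironolactone, and -0.0669 to 0.11 for Lama2, -0.0474 to 0.12 for Lama5 and -0.22 to 0.0017 for Nid2 between spironolactone and vehicle.

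Among ratios and shares, permuting within sample numbers (replicate block) left the Nid1 to Nid2 differences at 0.88 and 0.80 (log2) and the Lama2 share differences at 12.1 and 11.7 percentage points, with p = 0.0556, the smallest that exact permutation allows there. The Lama4 share against vehicle differed by -10.0 points without division by length and by -9.63 with GENCODE M1 lengths (exact permutation p = 0.0286 each). With 1 library left out it differed by -9.76 to -6.04. The shares sum to the whole, so this fall is not separate from the rise of the Lama2 share. With 1 library left out, the Nid1 to Nid2 difference was 0.77 to 1.02 against vehicle and 0.68 to 0.93 against spironolactone, and the Lamb1 to Lamb2 difference against spironolactone was -0.22 to -0.14. Between spironolactone and vehicle these were -0.0338 to 0.21 and -0.0328 to 0.0426, and the shares differed by -0.32 to 1.09 (Lama2), -3.41 to 0.72 (Lama4) and -0.43 to 2.39 points (Lama5). Over all alternatives of single members, 538 values kept direction and call, 26 gained a call and 14 changed sign. Counts over the wider lists moved by over 1.5 times in 29 cases and not in 97. Of the sugar chain enzymes against vehicle, DESeq2 called 2 and limma 1. The cause of these shifts was not tested.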

Other observations

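Within treatments, after each treatment mean was removed, the members fell into sets that varied together over the 12 libraries. Perlecan varied with Lamb2 (r = 0.939), with Lama5 (r = 0.933) and with Lamc1 (r = 0.909). Nid2, the nidogen that differed most between the sample numbers, varied with Agrn (r = 0.857) and with Lama4 (r = 0.855), and opposite to Lama2 (r = -0.841). These values are a description. Libraries of 1 mouse share that mouse, and the difference between the sample numbers enters all of them.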
